A study of Homo sapiens with 30 samples.

Results

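The genes described are 9 direct transcriptional targets of the tumour suppressor p53, chosen by name: CDKN1A, MDM2, BAX, BBC3, GADD45A, SESN1, FAS, TP53I3 and ZMAT3. Every array probe carrying one of these gene names was taken, which gave 16 of the 58201 probes on the array. They were followed in BEAS-2B, an immortalized human bronchial epithelial cell line grown at the air-liquid interface, after 10 mg of whole birch pollen was blown into a sedimentation chamber over the cells, or after mock exposure, in which a mesh kept the pollen grains out. RNA was taken 10 min after the exposure, at 55 min, after a further wait to 2h25 min and 6h50 min, and finally at 24 h, with 3 mock and 3 pollen samples at each time, 30 one-colour arrays in all. Both groups went through the chamber, the air flow and the same incubations, and apart from the pollen they differed by the mesh over the mock cells. No sample that had stayed outside the chamber is analysed here. The repetitions were run on different days, each with its own mock.

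p53 is a transcription factor that is kept scarce by the ubiquitin ligase MDM2, itself the product of a p53 target gene, and that accumulates when DNA is damaged or the cell is stressed in other ways. Its targets then stop the cell cycle (CDKN1A, GADD45A), damp p53 itself (MDM2), guard against oxidants (SESN1), act on RNA (ZMAT3) or drive cell death (BAX, BBC3, FAS, TP53I3). BEAS-2B cells were immortalized with a virus whose large T antigen binds p53 and blocks its action as a transcription factor. All samples share this antigen, and the cells are 1 line. Levels of target RNA were therefore read in a line that carries this antigen. Neither the p53 protein nor the antigen was measured on the arrays, so how far p53 was blocked in these samples is not known.

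The probes are 60 bases long, and they set which transcripts each value counts. Of the 16, 4 that lie in coding sequence are printed. Those of CDKN1A and TP53I3 gave the values of their genes, while those of MDM2 and FAS are shown because their readouts are set beside those of MDM2 probe 1 and FAS probe 1, which stood for these genes. Positions are those given in the array files for build hg19, read 5′ to 3′ on the strand of the transcript, with the letters of a stop codon in capitals.
CDKN1A, chr6:36652178-36652237, plus strand: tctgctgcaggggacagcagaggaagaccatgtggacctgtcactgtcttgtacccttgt
TP53I3 (probe 1), chr2:24300504-24300563, minus strand: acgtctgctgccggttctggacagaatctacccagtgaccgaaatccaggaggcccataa
MDM2 (probe 2), chr12:69233570-69233629, plus strand: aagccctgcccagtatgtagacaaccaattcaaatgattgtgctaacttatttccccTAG
FAS (probe 3), chr10:90774148-90774207, plus strand: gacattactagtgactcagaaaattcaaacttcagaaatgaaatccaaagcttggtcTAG
The MDM2 and FAS probes end on the stop codon. CDKN1A was read by 1 probe, as were BBC3, GADD45A, SESN1 and ZMAT3. BAX and TP53I3 had 2 probes each, MDM2 had 3 and FAS had 4.

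p53 binds pairs of a decamer, and the best known of its sites in these genes lie within the first intron of some and upstream of others. The windows searched here held only the 250 bases before each RefSeq transcript start in GRCh38.p14, 16 windows for 8 of the 9 genes. A pair of p53 decamers, with no more than 2 mismatches to the consensus, the fixed C and G of each decamer kept, and a spacer of at most 13 bases, was in 3 of these windows, from MDM2 and FAS. Among the 35116 windows of all genes, 875 (2.49%) held such a pair. An exact single decamer was in 2 of the member windows and in 5.57% of all windows. Of the 3 windows 2 belong to MDM2, start a few bases apart and hold the same pair, so that 2 distinct pairs were found. They are printed in capitals, to show the letters that matched.
MDM2, chr12:68808767-68809016, plus strand: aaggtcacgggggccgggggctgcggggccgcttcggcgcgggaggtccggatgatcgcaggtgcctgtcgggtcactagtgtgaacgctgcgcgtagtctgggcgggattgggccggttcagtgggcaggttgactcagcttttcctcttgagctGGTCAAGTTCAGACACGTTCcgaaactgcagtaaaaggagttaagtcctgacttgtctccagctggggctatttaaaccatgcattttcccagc
FAS, chr10:88991181-88991430, plus strand: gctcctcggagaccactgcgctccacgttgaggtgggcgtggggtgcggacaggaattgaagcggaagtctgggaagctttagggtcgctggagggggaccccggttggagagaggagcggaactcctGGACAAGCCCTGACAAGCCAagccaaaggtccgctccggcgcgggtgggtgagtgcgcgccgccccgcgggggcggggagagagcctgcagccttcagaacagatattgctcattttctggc
A match describes letters only, and binding was not measured.

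A level is the log2 of a probe's processed intensity minus the log2 of the 75th percentile of intensity on the same array, so that 0 marks that percentile and a step of 1 is a doubling. The 75th percentile itself lay between 578 and 1151 intensity units on the 6 arrays of 6h50 min and between 1044 and 2111 on the other 24. All 6 arrays of 6h50 min shared 1 slide of their own, and all 6 of 10 min shared another, so that for 6h50 min against 10 min the slide and the time cannot be told apart. At 55 min, pollen replicate 1 was hybridized alone to another array design and correlated least with its replicates (r of at least 0.972, against at least 0.991 in the other groups). Keratins and the other markers of the epithelial line were well above background on all 30 arrays for 9 of 9 genes. Of the 5 ciliated and secretory cell markers none was above background on all arrays, with SCGB1A1 above it on 29, MUC5AC on 27, FOXJ1 on 8 and TEKT1 and MUC5B on 0. Among markers of other cells, MS4A1 (B cells) and PECAM1 (endothelium) were above background on 0 arrays and CD3E on 17. PTPRC, CD14, CDH5, DCN and COL1A1 were above it on all 30. CD68, also chosen as a marker, had no probe under that name. All 16 member probes were well above background on every array that held them and entered the test. In bulk RNA, fewer cells with a transcript and less transcript per cell cannot be told apart.

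Between pollen and mock none of the 9 genes was called at any of the 5 times (limma, Benjamini-Hochberg adjusted p under 0.05 over 32100 probes and a change of at least 1.1-fold). Across all probes the called share was 0% at 10 min, 0.00312% at 55 min, 0.0343% at 2h25 min, 0.0436% at 6h50 min and 0.00312% at 24 h, so that a count of 0 among 9 is also what the background gives. At an unadjusted p under 0.05 the member counts were 0, 0, 0, 1 and 0, against 587, 1630, 957, 2388 and 1158 of all probes. The median difference of the 9 genes, pollen minus mock on the log2 scale, was -0.01, 0.04, 0.02, 0.01 and 0.08 in the order of the times, beside 0.00, -0.01, -0.03, -0.01 and 0.00 over all genes. Of the 45 differences, 44 had a 95% confidence interval that included 0. The intervals reached no lower than -0.96 and no higher than 0.83, and smaller changes remained within them. Each interval covers 1 gene at 1 time under the reported scaling, so the 45 together do not exclude a larger change.

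**Figure D1:**
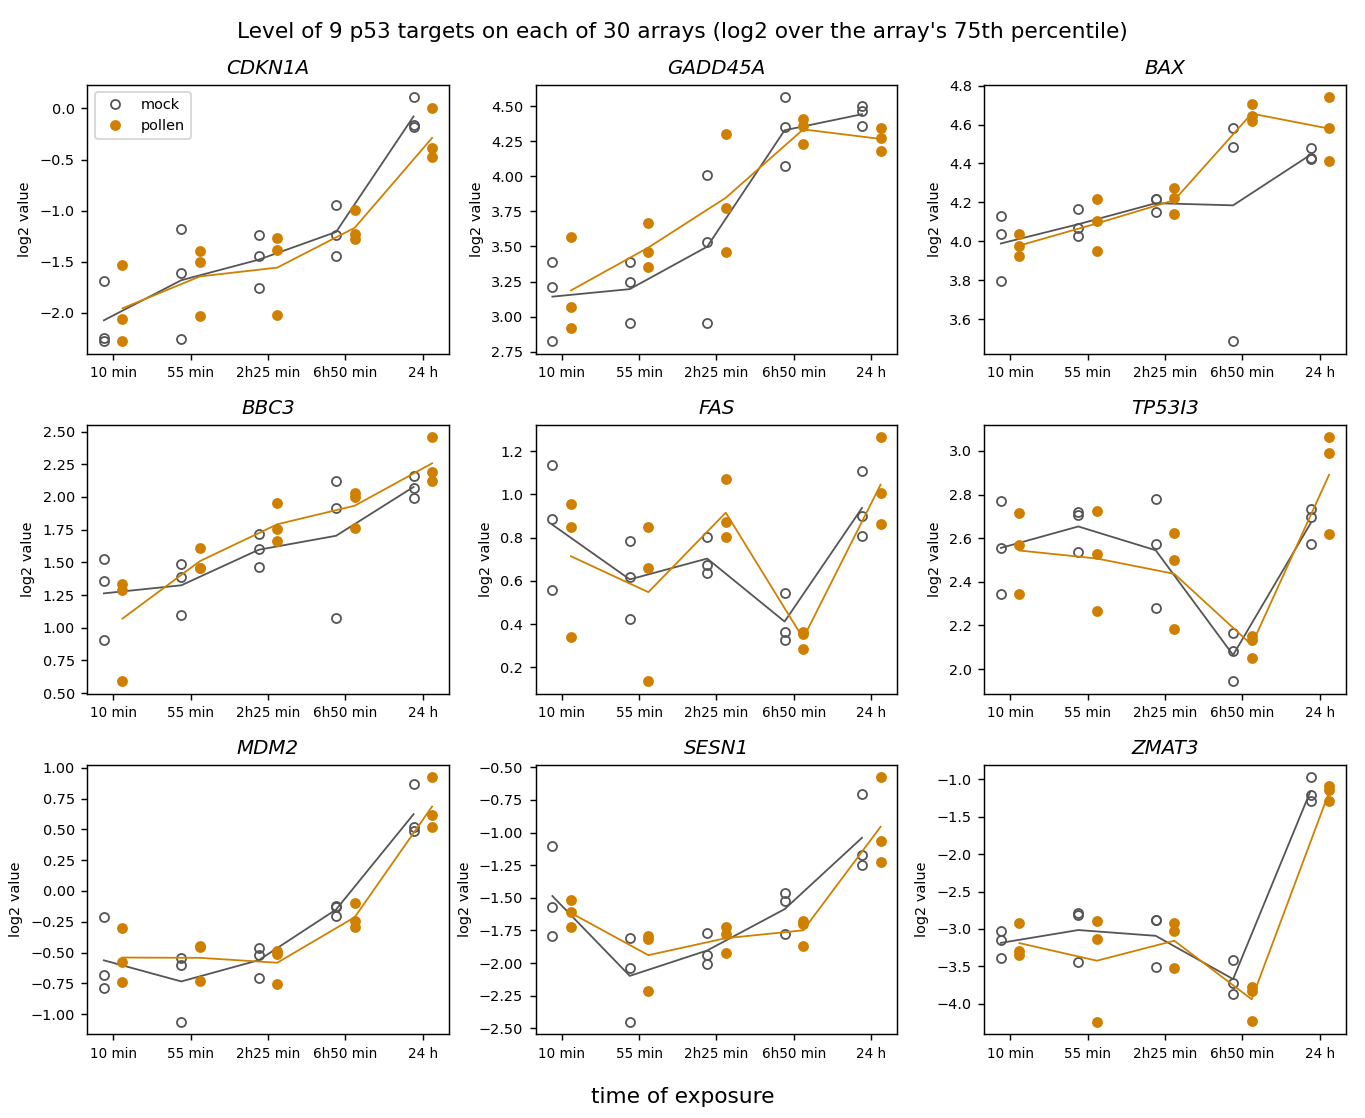
Level of each of the 9 genes (y axis, log2 relative to the 75th percentile of the array) at the 5 times (x axis, categories in order), with 1 point per array and a line joining the means of each condition (n = 3). Open points are mock and filled points pollen. The points of both overlap in all but 3 of the 45 pairs. How often 3 arrays lie apart from 3 over all probes was not counted, so that number has no background beside it. Within their own panels ZMAT3 and CDKN1A are far higher at 24 h than at 10 min.

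The cell cycle inhibitors gave the following levels. CDKN1A, whose protein p21 inhibits cyclin-dependent kinases, had a mock mean ± SD of -0.08 ± 0.16 and a pollen mean of -0.29 ± 0.25 at 24 h (n = 3 each), a difference of -0.21 with an interval from -0.74 to 0.33. The 2 groups overlapped. GADD45A, which binds PCNA and takes part in repair and in the G2 checkpoint, stood at 4.46, 4.36 and 4.50 in mock and at 4.34, 4.27 and 4.18 in pollen at 24 h. All 3 pollen arrays lay below all 3 mock arrays, by 0.18 in the mean (interval -0.65 to 0.29, adjusted p = 1.00). At 2h25 min GADD45A was at 4.01, 2.96 and 3.53 in mock and 4.30, 3.46 and 3.77 in pollen, and each pollen array was above the mock array of the same number. The mean difference of 0.35 did not pass (interval -0.12 to 0.82).

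MDM2, the ligase that marks p53 for degradation, differed by -0.06 to 0.19 between pollen and mock at the 5 times. SESN1, a sestrin that restrains mTORC1 and limits oxidative damage, differed by -0.16 to 0.16. ZMAT3, a zinc finger protein that binds RNA, had its largest difference at 55 min, -0.41 (interval -0.96 to 0.14). There the mock arrays read -3.44, -2.81 and -2.79 and the pollen arrays -4.24, -3.14 and -2.90. The lowest value came from the single array of the other design, and without that array the difference was -0.003.

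Of the cell death genes, BAX, which permeabilizes the outer mitochondrial membrane, gave the 1 interval that left out 0. At 6h50 min the mock arrays read 4.58, 4.49 and 3.49 and the pollen arrays 4.62, 4.71 and 4.64, a difference of 0.47 (SE 0.17, interval 0.11 to 0.83, adjusted p = 0.418 by limma). The groups did not overlap, but the third mock array stood well below the other mock arrays, and without mock replicate 3 the difference was 0.12. BAX probe 2 gave 0.21 there. BBC3, which encodes the BH3-only protein PUMA, was low on the same array, with 2.12, 1.91 and 1.07 in mock against 1.77, 2.03 and 2.00 in pollen. FAS, the death receptor for FAS ligand, read 0.67, 0.80 and 0.64 in mock and 0.80, 1.07 and 0.87 in pollen at 2h25 min, with all pollen arrays above all mock arrays by a small margin and a mean difference of 0.21 (interval -0.15 to 0.58). TP53I3, a quinone reductase linked to reactive oxygen in p53-dependent death, differed most at 24 h, by 0.22 (interval -0.09 to 0.54).

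**Figure D2:**
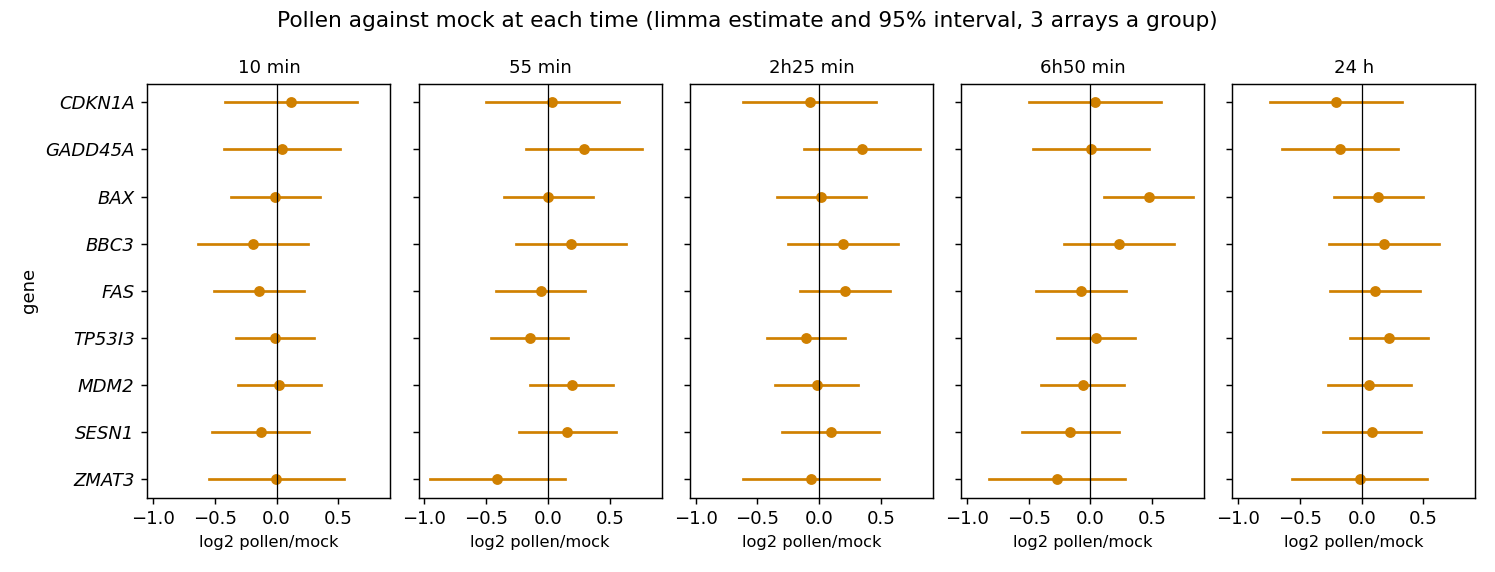
Difference between pollen and mock for each of the 9 genes at each of the 5 times (log2 fold change, with 95% confidence intervals from limma and a line at 0). 1 interval of 45, that of BAX at 6h50 min, from 0.11 to 0.83, leaves out 0.

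Whether the effect of pollen itself changed from one time to the next was tested as an interaction. None of the 9 genes was called for 55 min against 10 min (0% of all probes) or 2h25 min against 55 min (0%). Nor was any called for 6h50 min against 2h25 min (0.00312%) or for 24 h against 6h50 min (0%). None of the 9 reached an unadjusted limma p under 0.05 in any of these, against 1211, 443, 1796 and 1655 of all probes. The smallest unadjusted p of a member over the 10 pairs of times was 0.0629. At 55 min and 2h25 min slide 2 held both conditions with 2 arrays each, and within it the differences ran from -0.22 to 0.25 and from -0.13 to 0.40, with 0 members called. How many of all probes were called within that slide is not given here, so this count lacks a background. At 10 min, 6h50 min and 24 h both conditions lay on the same slide throughout.

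Several of the 9 genes differed between times, in mock and in pollen samples alike. At 24 h against 10 min, 6 of 9 were called in mock and 7 of 9 in pollen, all of them higher. Over all probes 37.5% were called in mock (17.5% higher and 20% lower) and 35.3% in pollen (15.8% higher and 19.5% lower), so that large shares of the array moved too. The median change of the 9 genes was 0.81 in mock and 1.08 in pollen, beside -0.08 in each over all genes. ZMAT3, CDKN1A, GADD45A, MDM2, BBC3 and BAX were called in both series and SESN1 in pollen alone. The difference between the mock and the pollen change from 10 min to 24 h was called for 0 of 9 genes (smallest unadjusted p = 0.231, BBC3).

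ZMAT3 had the largest change in mock. It read -3.38, -3.03 and -3.15 in mock at 10 min and -1.29, -1.21 and -0.97 at 24 h, and -3.30, -2.93 and -3.35 against -1.28, -1.14 and -1.09 in pollen. No array of 10 min reached an array of 24 h. How often all probes lay apart in this way between times was not counted, here or for the other genes. The difference was 2.03 in mock (SE 0.26, 4.08-fold, limma adjusted p = 3.75e-06) and 2.02 in pollen (SE 0.26, 4.05-fold, adjusted p = 6.63e-06). CDKN1A rose from -2.28, -1.69 and -2.25 to 0.11, -0.18 and -0.17 in mock and from -2.06, -1.53 and -2.28 to -0.0005, -0.48 and -0.39 in pollen. These groups too were apart, by 1.99 in mock (SE 0.26, 3.98-fold, adjusted p = 3.56e-06) and 1.67 in pollen (SE 0.26, 3.18-fold, adjusted p = 4.34e-05). MDM2 rose from -0.79, -0.21 and -0.69 to 0.49, 0.52 and 0.87 in mock and from -0.74, -0.30 and -0.58 to 0.62, 0.52 and 0.92 in pollen. Its change was 2.28-fold and 2.34-fold, with an SE of 0.16 on the log2 scale in both, and no arrays of the compared times overlapped.

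GADD45A read 3.39, 3.21 and 2.82 in mock at 10 min and 4.46, 4.36 and 4.50 at 24 h, an increase of 1.30 (2.46-fold, adjusted p = 1.06e-04). In pollen it increased by 1.08 (2.11-fold). BBC3 increased by 0.81 in mock (adjusted p = 0.00475) and by 1.19 in pollen (adjusted p = 2.17e-04), and BAX by 0.46 (adjusted p = 0.043) and 0.60 (adjusted p = 0.0102). With the replicate number as a random block BAX in mock was not called (adjusted p = 0.052). It was called in 1 of the 6 fits that left out an array, the one without 10 min mock replicate 2, and SESN1 in mock was called only in that same fit. SESN1 was higher by 0.66 in pollen (adjusted p = 0.00979) and gave 0.45 in mock (adjusted p = 0.0687). The 2 remaining genes were not called: FAS gave 0.08 in mock (interval -0.29 to 0.44) and 0.33 in pollen (interval -0.03 to 0.69), and TP53I3 gave 0.11 (interval -0.20 to 0.43) and 0.35 (interval 0.03 to 0.66).

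**Figure D3:**
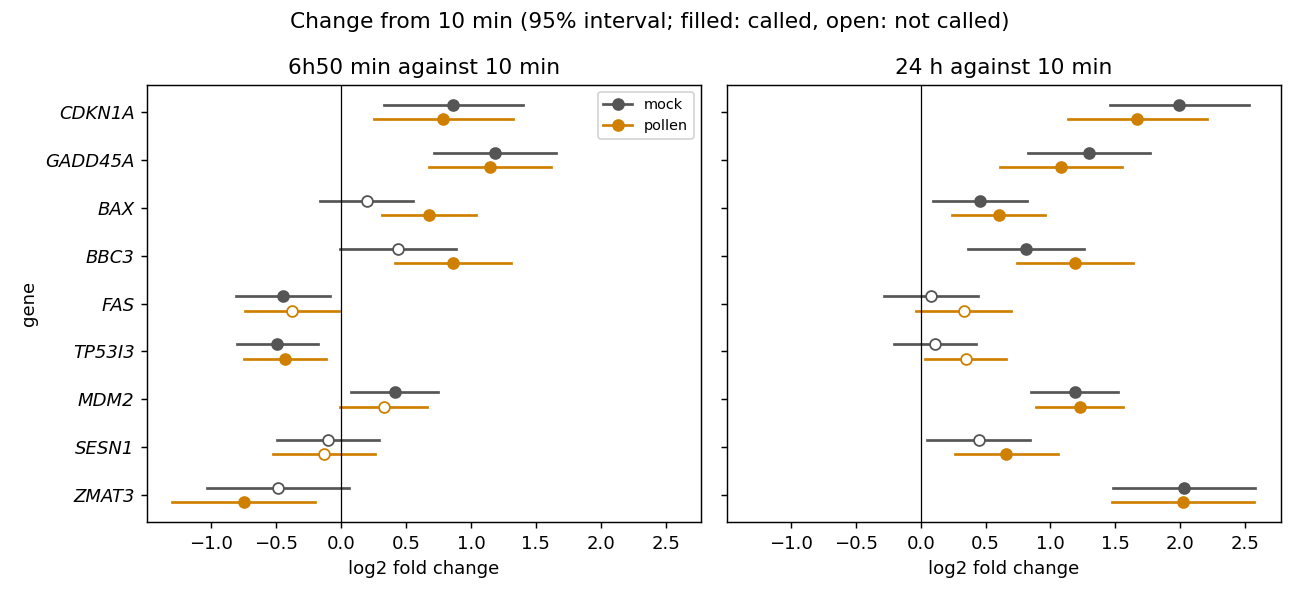
Change of each of the 9 genes against 10 min within mock and within pollen (log2 fold change with 95% confidence intervals from limma, filled where called) at 6h50 min and at 24 h. The 24 h values of ZMAT3 (2.03 and 2.02) and CDKN1A (1.99 and 1.67) are the farthest from 0.

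The arrays of 24 h and of 10 min lay on different slides, and the calls at 24 h were lost once slide was held fixed. With slide as a fixed block, which ties the slides together through the few arrays of 55 min and 2h25 min, 0 of 9 genes were called in mock and in pollen by limma, and 1 gene, ZMAT3, reached an unadjusted p under 0.05 in each. The share of all probes called in that fit is not given here, so these counts have no background beside them. ZMAT3 was then at 1.05 in mock (SE 0.37, adjusted p = 0.105) and 1.04 in pollen (adjusted p = 0.14), CDKN1A at 0.82 (SE 0.46, adjusted p = 0.344) and 0.50, GADD45A at 0.97 and 0.75, and MDM2 at 0.57 and 0.61. Slide 4 held all 24 h arrays and replicate 3 of 2h25 min, which allows a comparison of 24 h with 2h25 min on 1 slide, with the single earlier array of each condition assumed to vary like the other groups. There all 9 genes were higher at 24 h in mock, with a median of 0.91 beside -0.04 for all probes, and 4 were called, where 13.3% of all probes were: ZMAT3 (1.73, adjusted p = 3.6e-04), MDM2 (1.08, adjusted p = 0.00278), SESN1 (0.97, adjusted p = 0.016) and CDKN1A (1.16, adjusted p = 0.0197). In pollen all 9 were higher too, with a median of 0.59, and 3 were called, where 9.3% of all probes were: ZMAT3 (1.75, adjusted p = 6.15e-04), MDM2 (1.20, adjusted p = 0.00239) and CDKN1A (1.099, adjusted p = 0.035).

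At 6h50 min the 9 genes went in both directions. In mock 5 were called, where 38.4% of all probes were (13.1% higher and 25.3% lower), and in pollen 6, where 42.9% were (14.6% higher and 28.3% lower). GADD45A was higher by 1.19 in mock (2.27-fold, adjusted p = 4.63e-04) and by 1.15 in pollen (2.21-fold, adjusted p = 5.31e-04), and its arrays at 6h50 min (4.56, 4.35 and 4.07 in mock, 4.41, 4.36 and 4.23 in pollen) all lay above those at 10 min. CDKN1A was higher by 0.86 and 0.79. MDM2 was higher by 0.41 in mock, at an adjusted p of 0.0475, and BAX by 0.68 and BBC3 by 0.86 in pollen. TP53I3 was lower by 0.49 in mock (log2 change -0.49, adjusted p = 0.0147) and 0.43 in pollen (-0.43, adjusted p = 0.0261), FAS was lower in mock (-0.45, adjusted p = 0.0477) and ZMAT3 in pollen (-0.75, adjusted p = 0.0265).

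ZMAT3 thus read -3.83, -4.23 and -3.77 in pollen at 6h50 min, below the arrays of 10 min, and -1.28, -1.14 and -1.09 at 24 h, above them. The 6h50 min slide was dimmer than the others, and the median of all probes there was -0.17 in both mock and pollen. With quantile normalization over the probes of both array designs that median was 0.03 in mock and 0.02 in pollen, and 4431 probes were called higher and 3405 lower in mock, of 23889 tested. The reported scaling gave 4199 higher and 8124 lower of 32100, and 4203 higher and 5075 lower of the 23697 probes above background on all arrays, so that the split moved both with the probes tested and with the scaling. With slide as a random block 1 member was called in mock and 1 in pollen at 6h50 min, and the share of all probes called in that fit is not given here. GADD45A was called in 14 of 14 other settings in both series. CDKN1A was called in 10 of 14 in mock and 9 of 14 in pollen, FAS in 5 of 14 in mock, and MDM2 in 7 of 14 in mock. Each of the genes called at 6h50 min kept its direction in these 14 settings. FAS and MDM2 in mock were each called in 1 of 6 fits that left out an array, FAS without 10 min mock replicate 1 and MDM2 without 10 min mock replicate 2, whereas BAX and BBC3 in mock were called only without 6h50 min mock replicate 3, the array on which both were low.

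At the 2 earlier times none of the 9 genes was called. This held at 55 min in mock, where 0.187% of all probes were called, and in pollen (0.841%), and at 2h25 min in mock (0.171%) and in pollen (2.07%). At an unadjusted p under 0.05 there were 1, 0, 2 and 2 genes, in that order, against 3466, 4805, 3921 and 5309 of all probes. SESN1 had the smallest p in mock at 55 min. It read -1.79, -1.102 and -1.57 at 10 min and -2.45, -1.81 and -2.04 at 55 min, and all 3 later arrays lay below the 10 min arrays, a difference of -0.61 (SE 0.19, limma adjusted p = 0.234). On the arrays of slide 1 alone it was -0.96, where 55 min had only mock replicate 1, the array with the lowest value (-2.45). CDKN1A in mock at 2h25 min differed by 0.59 (adjusted p = 0.354), and with slide as a fixed block by -0.37. BBC3 in pollen at 2h25 min differed by 0.72 from 10 min (adjusted p = 0.0765) and GADD45A by 0.66 (adjusted p = 0.128). Some of these differences were as large as ones called at 24 h.

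Where a gene had several probes, they did not always report the same change. BAX probe 2 rose 3.03-fold in mock (log2 1.60, adjusted p = 3.22e-08) and 2.64-fold in pollen at 24 h, against 1.37-fold and 1.52-fold for probe 1, the probe with the higher mean that stood for the gene. BAX probe 1 lies at chr19:49464904-49464963 and probe 2 at chr19:49464454-49464513 in hg19, and they were designed on different RefSeq transcripts. All 3 MDM2 probes rose at 24 h, by 1.19, 0.78 and 0.81 in mock and 1.23, 0.71 and 0.78 in pollen. At 6h50 min in mock they gave 0.41, -0.59 and -0.02. MDM2 probe 2, printed above, lay in a dim area somewhere in the series, at a time not given here. FAS probe 4, absent from the other array design, was higher at 24 h by 0.57 in mock (adjusted p = 0.0269) and 0.72 in pollen (adjusted p = 0.00713), while FAS probes 1 to 3, among them the printed coding probe, were not called. At 6h50 min in mock FAS probes 1, 2 and 3 were lower (-0.45, -0.63 and -0.77), and probe 4 was at -0.33 and not called. Both TP53I3 probes were lower in mock at 6h50 min, the printed one by -0.49 and the other by -0.41.

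The wider p53 pathway was read through 5 lists. Other p53 targets held 53 genes, all tested. At 24 h against 10 min, 27 were called higher and 4 lower in mock, with a median of 0.39, and 28 higher and 2 lower in pollen, with a median of 0.43, beside -0.08 over all genes in each. These calls were 58.5% and 56.6% of the list, beside 37.2% of all genes in mock and 35.7% in pollen. The members lost their calls at 24 h with slide as a fixed block. None of the 5 lists was refitted against 10 min with slide as a block, so how far their calls depend on slide was not tested. TNFRSF10D, a decoy receptor for TRAIL, rose by 2.68 in mock and 2.59 in pollen. GDF15, a stress cytokine, rose by 1.94 and 1.80. TP53INP1, a cofactor of p53 in cell death, rose by 1.74 and 1.92, and EDA2R, a receptor of the TNF receptor family, by 1.79 and 1.69. The EDA2R probe was dim, with a mock mean of -5.75 at 10 min, where it was well above background on 2 of 3 arrays. PERP, a desmosome protein, was lower (-0.64 and -0.42), as was ORAI3, a calcium channel subunit (-0.56 and -0.46).

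**Figure D4:**
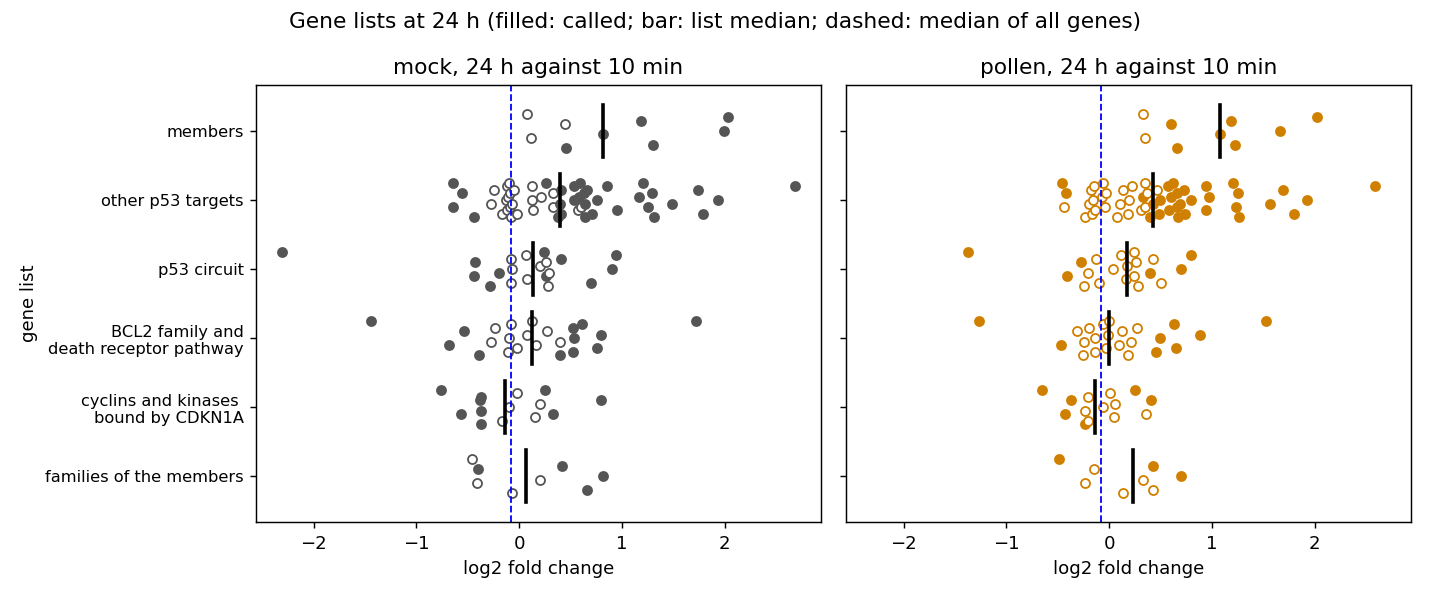
Change from 10 min to 24 h of every tested gene in the 9 members and the 5 pathway lists (log2 fold change, 1 point per gene, filled where called, mock and pollen shown apart, with a bar at the list's median and a dashed line at the median of all genes). The members (medians 0.81 and 1.08) and the 53 other p53 targets (0.39 and 0.43) lie higher than the cyclins and kinases (-0.13 in each).

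The genes that control p53 went both ways. Of 20, 6 were called higher and 5 lower in mock at 24 h, and 3 higher and 3 lower in pollen, with medians of 0.14 and 0.17. That is 55% in mock and 30% in pollen, the latter under the share of all genes. USP7, which removes ubiquitin from MDM2 and p53, was higher by 0.94 and 0.80, and HIPK2, a kinase that phosphorylates p53, by 0.90 and 0.70. PPM1D, a phosphatase that dampens p53 signalling, was higher by 0.41 and 0.40. TP63, the p53 relative of basal epithelial cells, was well above background on 3 of 3 mock arrays at 10 min and on 0 of 3 at 24 h, and was at least 2.75-fold lower (limma adjusted p = 1.31e-04). In pollen its probe was above background on 3 arrays at 10 min and 2 at 24 h, with means of -5.58 and -6.95 (adjusted p = 0.0126). The ubiquitin ligase RCHY1 was lower (-0.43 and -0.41), as was ATM, the kinase that senses DNA breaks (-0.29 and -0.28). The ligase COP1 was lower in mock (-0.44) and gave -0.24 in pollen, which was not called.

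In the BCL2 family and death receptor pathway, 23 of 24 genes were tested, and 8 were called higher and 4 lower in mock at 24 h and 6 higher and 2 lower in pollen, with medians of 0.12 and 0.00. The shares called were 52.2% and 34.8%, the latter near that of all genes. Higher were the BH3-only genes HRK (1.72 and 1.52) and BCL2L11 (0.80 and 0.89), BID (0.61 and 0.65) and the antiapoptotic BCL2 (0.75 and 0.49). The BH3-only gene BMF was lower (-1.44 and -1.27), as were CFLAR, which blocks caspase-8 (-0.54 and -0.47), and in mock CASP8 (-0.69), which gave -0.31 in pollen and was not called there. Of 14 cyclins, kinases and partners on which p21 acts, 3 were higher and 6 lower in mock and 2 higher and 4 lower in pollen, with a median of -0.13 in each and shares of 64.3% and 42.9%. CCNE1 (-0.76 and -0.65), CDK6 (-0.57 and -0.43) and RB1 (-0.38 and -0.37) were lower, and CDK4 (0.33 and 0.40), PCNA (0.26 and 0.25) and in mock CCND1 (0.80) were higher, CCND1 giving 0.36 in pollen without a call. Of 11 relatives of the members 8 were tested, and 3 were higher and 1 lower in mock and 2 higher and 1 lower in pollen, 50% and 37.5%. SESN2, a sestrin like SESN1, was higher by 0.66 and 0.43, and ZMAT5 by 0.82 and 0.70. CDKN1B, a kinase inhibitor like CDKN1A, was lower in mock (-0.40) and gave -0.15 in pollen, and GADD45B was lower in pollen (-0.49) and gave -0.41 in mock, neither of the latter values called.

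At 6h50 min 18 of the other targets were higher and 9 lower in mock, with a median of 0.05, and 19 were higher and 11 lower in pollen, with a median of 0.09, beside -0.18 and -0.19 over all genes. These were 50.9% and 56.6% of the list, beside 39.5% of all genes in mock and 44.7% in pollen. GDF15 led the higher ones (1.37 and 1.32), followed by PLK3 (0.88 and 1.096), a kinase of the stress response, and by TNFRSF10B (0.78 and 0.84), the TRAIL receptor. CCNG1, an atypical cyclin, was lower (-0.74 and -0.87), as were FUCA1, a lysosomal fucosidase (-0.77 and -0.63), and TRIM22 (-0.70 and -0.79). PHLDA3, among the 9 lower in mock, had 2 values from dim areas of the arrays and went from -0.98 to -0.05, without a call, when these were left out. Of the control genes 5 were higher and 5 lower in mock and 4 higher and 2 lower in pollen (50% and 30%). TP63 was above background on 0 of 3 mock arrays at 6h50 min and at least 2.71-fold lower than at 10 min, and 2 of its mock values lay in dim areas. In pollen it was above background on 1 of 3 arrays. TP73 was lower in mock (means -5.34 and -6.78, above background on 2 of 3 arrays at 6h50 min). MDM4, another of the 5 lower in mock, rested on 2 values in dim areas and went from -0.96 to 0.18, without a call, when they were left out. USP7 (0.71 and 0.81) and the coactivator CREBBP (0.49 and 0.43) were higher. In the death list 8 were higher and 2 lower in mock and 7 higher and 5 lower in pollen (43.5% and 52.2%), with HRK (1.21 and 1.00), BCL2L2 (0.58 and 0.64) and BCL2 (0.58 and 0.51) higher and CASP8 lower (-1.29 and -1.33). Among cyclins and kinases 2 were higher and 3 lower in mock and 3 higher and 3 lower in pollen (35.7% and 42.9%, under the shares of all genes), with CDK2 (-0.68 and -0.46) and CCNA2 (-0.53 and -0.52) lower and CDK6 higher (0.33 and 0.51) in both. Among the relatives of the members 2 were higher and 1 lower in mock and 2 higher in pollen (37.5% and 25%, again under them), GADD45G being higher in both (1.12 and 1.07). In pollen at 55 min PLK2 (0.89) and LIF (1.13) were higher and TRIM32 (-0.53) lower among the other targets, 5.66% of the list. Of the control genes 1 was called higher at 55 min in mock and 1 in pollen, 5% in each. Over all genes 0.204% were called there in mock and 0.93% in pollen. At 2h25 min 4 of the other targets were called in pollen, all higher: LIF (1.90), PLK3 (1.09), SUSD6 (0.69) and TNFRSF10B (0.62), and in mock LIF alone (0.89, adjusted p = 0.049). These were 7.55% of the list in pollen and 1.89% in mock, beside 2.26% and 0.192% of all genes. Also higher in pollen at 2h25 min were 1 of 23 death genes (4.35%) and 1 of 8 relatives of the members (12.5%). That relative was GADD45B (0.69, limma adjusted p = 0.0476).

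Between pollen and mock 1 gene of the 5 lists was called at any time, LIF at 2h25 min. LIF encodes a cytokine of the interleukin-6 family and is known to be induced by many inflammatory signals besides p53. It read -0.85, -1.30 and -0.80 in mock and 0.23, 0.21 and -0.10 in pollen, and every pollen array was above every mock array. The difference was 1.097 (SE 0.18, adjusted p = 0.0271 by limma), and on slide 2 alone it was 1.30 (adjusted p = 0.0118). The call was lost without mock replicate 1 or 2 or pollen replicate 1 or 2 (adjusted p from 0.0823 to 0.295), while the difference stayed at 0.94 or more. Nor was LIF called without the filter on dim probes (adjusted p = 0.0647), with array weights (adjusted p = 0.0581), in a fit of the 2 groups alone or under the scalings that include probes missing from the other array design. MDM4, a partner of MDM2 that also binds p53, gave the largest difference of the lists at 6h50 min, 1.21 (adjusted p = 0.0842). Its mock arrays read -0.91, -0.31 and 1.098, the first and second of them from dim areas of the array, against 1.03, 1.24 and 1.26 in pollen, and with dim areas left out the difference was 0.08, with 1 mock array.

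Other genes of the lists gave pollen against mock differences that did not pass, and the ones of smallest unadjusted p are given as values. At 2h25 min PMAIP1, the gene of the BH3-only protein NOXA, differed by 0.40, MCL1, an antiapoptotic relative of BCL2, by 0.38, GADD45B by 0.43 and PCNA by 0.19, each with a limma adjusted p of 1. At 6h50 min CCND1 differed by 0.53 (adjusted p = 0.373), EP300, a coactivator of p53, by -0.31 (adjusted p = 0.49) and BIK, a BH3-only gene, by -0.30 (adjusted p = 0.63). At 24 h the initiator caspase gene CASP9 differed by 0.25 and CYCS, which encodes cytochrome c, by -0.28, each with an adjusted p of 1. GDF15 lay between -0.10 and 0.29 and SESN2 between -0.22 and 0.11 over the 5 times.

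Over the 10 group means, each of 3 arrays, some members followed each other more closely than others. CDKN1A and MDM2 had a Pearson r of 0.948, MDM2 and SESN1 of 0.905 and BAX and BBC3 of 0.90, whereas GADD45A and TP53I3 had -0.271. Within groups, after subtracting the group mean from each of the 30 arrays, the same pairs gave 0.689, 0.812, 0.783 and -0.553. These points share slide, day and array scale, and the values are a description. Among 14697 other genes above background on all arrays, the closest by group means were TMEM258 and RAB21 to CDKN1A (0.992 each), SMG8 and MIGA1 to MDM2 (0.994 each), SLC22A5 and TAX1BP1 to GADD45A (0.992 and 0.990), EMC3-AS1 and C9orf78 to ZMAT3 (0.991 and 0.990) and ANKRD46 and SPON2 to SESN1 (0.993 and 0.977). For the death genes they were MAP3K11 and MOGS to BAX (0.989 and 0.979), PURB and ARHGEF16 to BBC3 (0.979 and 0.971), VGLL3 and EIF2B1 to FAS (0.973 and 0.964) and TRIM22 and KRABD5 to TP53I3 (0.981 and 0.972).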

How the data were processed

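RNA of BEAS-2B cells was Cy3-labelled and hybridized to Agilent SurePrint G3 Human gene expression arrays, 1 array per sample. The probe intensity values were extracted by the authors with Agilent Feature Extraction 11.0.1.1, which subtracted the background and detrended each array, and the scanner output was deposited per array. A deposited table of log2 values, which the authors made with limma and whose columns share the same quantiles, was used as an alternative only. Its background correction is not given in the sources used here, and 6 of its 30 columns matched another array of their own group best. The scanner values were used for all other numbers. A column without a sample did not occur.

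Here the mean intensity of each probe's spots was divided by the 75th percentile over the 33873 probes shared by both array designs, and log2 was taken. A probe was kept where the scanner software marked it as well above background throughout any group of 3 arrays (32100 of 58201, with 24512 gene names). Of all probes, 33536 were named through a RefSeq accession, 4609 through a symbol or synonym and 20056 as in the files. Linear models with 10 group means were fitted over all probes with limma 3.58.1 (lmFit and eBayes, R 4.3.3), and p-values were adjusted over all probes (Benjamini-Hochberg). A change was called at an adjusted p under 0.05 and at least 1.1-fold, after the methods of the study, and an interaction at the adjusted p alone. The probe with the highest mean stood for its gene. Intervals are 95% intervals from limma, and the number of arrays limits the precision. The fit was tested on simulated data.

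The named genes were all 9 members, up to 3 called genes of largest change per list and direction, the genes of smallest p where a list had none called, MDM4, GADD45B, SESN2, PMAIP1 and GDF15, and the 2 genes most like each member by Pearson r. Some genes that this rule names are not reported here. The members and lists were chosen with earlier results of these data known. The lists hold 117 genes, some of them in more than 1 list. Same-numbered mock and pollen samples deviated together at 10 min (r from 0.296), 2h25 min (from 0.405) and 24 h (from 0.22), and not at 55 min (from -0.12) or 6h50 min (from 0.052). The numbers come from the sample labels, and the repetitions of the study were run on different days. Whether arrays of 1 group came from separate cultures is given only as repetition, so p-values measure the spread between these samples. Alternatives were background correction and normalization, the probes that set the scale, the filter on dim probes, array weights, replicate and slide as blocks, the arrays fitted, dim array areas and leaving out each array.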

Additional observations from a re-analysis of the deposited data

How the results depend on the processing

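No member was called between pollen and mock, in an interaction, or at 55 min or 2h25 min against 10 min when any single array was left out, and no called change of a member reversed under an alternative. The count of members called in mock at 6h50 min, 5 of 9, became 1 with quantile normalization (with or without normexp), with the percentile over each array's own probes and with slide as a random block, 2 with the authors' values, 3 without the filter on dim probes or with only the compared groups in the fit, and 8 with array weights. In pollen at 6h50 min the count of 6 became 1 with quantile normalization (with or without normexp) and with slide as a random block, and 3 with the percentile over own probes and with the authors' values. At 24 h the counts of 6 in mock and 7 in pollen became 3 and 4 with quantile normalization and 0 and 0 with slide as a fixed block. Leaving out 1 array gave 2 to 4 in mock and 4 to 6 in pollen at 6h50 min, and 5 to 7 and 6 to 8 at 24 h. The shares of all probes called in these settings are not given here. Neither these counts nor those that follow for alternative settings have such a background beside them. Genes of the pathway lists called at any time numbered 1 for pollen against mock, 82 for mock and 78 for pollen against 10 min, and these became 0, 35 and 26 with normexp and quantile normalization, 0, 21 and 19 with quantile normalization alone, and 3 for pollen against mock (LIF, MDM4 and PHLDA3) with normexp and quantile normalization over the probes of both designs, where MDM4 and PHLDA3 each had 2 values from dim areas at 6h50 min. Scaling over all probes, with 1 array of another design among them, moved the median of all probes for pollen against mock at 55 min from -0.01 to -0.27 (normexp and quantile) and -0.53 (quantile), against 0.02 with quantile normalization over the probes of both designs. With the replicate block the counts were 0 for every pollen against mock comparison, and 5, 5, 6 and 7 for mock at 6h50 min and 24 h and pollen at 6h50 min and 24 h. Apart from BAX in mock at 24 h, the pairing changed no call of a member. Of the differences between pollen and mock for single members, 616 lay within the spread of the arrays of the reported value under the alternatives and 32 moved beyond it. Of those between times 86 were no longer called and 7 were newly called, 59 moved beyond the spread and 919 did not. The scalings over the probes of both designs, the fit without the array of the other design, the comparisons within 1 slide and the fixed slide block were chosen after seeing the data. Signal over background set no limit for the members, which were above it on every array that held them.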
